A study of Mus musculus with 32 samples.

Results

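The replication-dependent histone genes are the clustered gene copies that supply the histone proteins H1, H2A, H2B, H3 and H4 while DNA is copied. They were chosen by name: every mouse gene whose current symbol is H1f1 to H1f5, or H2ac, H2bc, H3c or H4c followed by a number. The older names of all genes matched begin with Hist1 or Hist2. The rule matched 63 genes, made up of 5 H1, 18 H2A, 16 H2B, 12 H3 and 12 H4 genes. Of these, 61 were listed in at least 1 of the 32 libraries, among 20612 genes listed in all. H3c14 and the pseudogene H2ac14 were listed in none. On the GRCm38 assembly, 53 of the 63 lay on chromosome 13, between positions 21715711 and 23934913, and 10 lay on chromosome 3, between positions 96219885 and 96270192.

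The libraries came from J1, a mouse embryonic stem cell (ESC) line of strain 129S4/SvJae, differentiated in culture while exposed to a bisphenol. Bisphenols are plastics chemicals, and the compounds were bisphenol A (BPA), bisphenol F (BPF) and bisphenol S (BPS), each at 100 nM, with DMSO, the solvent, alone as the control. The 8 stages were ESC at day 0, embryoid bodies (EB, clumps in which ESC differentiate in suspension) sampled at days 4, 6, 9, 12 and 20, EB at day 8 that had received retinoic acid (RA EB), and neural progenitor cells (NPC) at day 10. Each stage had 1 library per treatment, so a stage is described by 4 libraries and a treatment by 8. The labels name no repeated cultures, all cells stem from a single line, and p-values measure only the spread between these libraries.

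Every cell that copies its DNA must also make new histones, around which the DNA is wound. H2A, H2B, H3 and H4 form the nucleosome core and H1 sits on the linker DNA between cores. The genes studied here are switched on together in S phase, the part of the cell cycle in which DNA is replicated. Their mRNAs lack introns and mostly end in a short stem-loop in place of a poly(A) tail, and that stem-loop is held by the protein Slbp, which sets how long the mRNA lasts. Cells that leave the cycle rely on other histone genes, the replication-independent variants such as H3f3a, H3f3b and H1f0, whose mRNAs carry a poly(A) tail.

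The stem-loop was searched for as a 16-base run of 6 stem bases, a loop of 4 and the 6 complementary bases in the GENCODE transcripts. It was found in 40 of the 62 members that had a transcript model, against 79 of 55341 genes of all kinds (0.143%). A model that stops before the stem-loop cannot hold it, so a member without a match is not shown to lack the element. The spelling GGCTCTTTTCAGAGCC occurred in 24 members. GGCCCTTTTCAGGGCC occurred in 6, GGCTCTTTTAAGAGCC in 5, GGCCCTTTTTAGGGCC and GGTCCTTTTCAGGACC in 2 each, and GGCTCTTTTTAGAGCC in 1. The following examples, from genes described below, are shown 5′ to 3′ as DNA with the stem and loop in capitals, because this element is what sets these mRNAs apart from poly(A)-tailed ones.
H2ac23 stem-loop: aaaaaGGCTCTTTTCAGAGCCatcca
H2ac18 stem-loop: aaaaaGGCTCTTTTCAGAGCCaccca
H1f2 stem-loop: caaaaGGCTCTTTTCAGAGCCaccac
H3c3 stem-loop: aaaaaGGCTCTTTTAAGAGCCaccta
H4c9 stem-loop: ttaaaGGCCCTTTTTAGGGCCaccac
The stem was the same in H2ac23, H2ac18 and H1f2, which belong to different classes or lie on different chromosomes. H3c3 had the same stem with a different loop, and H4c9 differed from these genes in both stem and loop. The transcript models of H2ac13, H2ac15 and H2ac22 held no such run within their bounds. These models are shorter than that of H2ac23, in which the run starts at base 434 of 480. In 9 members the letters of a poly(A) signal followed the stem-loop, and H1f2 was among them.

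RefSeq promoter windows (GRCm38.p6), from 250 bases before to 50 after the gene start, were matched for 57 members, 58 windows in all, since H2bc6 has 2. The CCAAT motif, searched on both strands, was in all 5 H1, 17 H2A, 15 H2B and 10 H3 windows. It was in 3 of 11 H4 windows (27.3%), and in 37.4% of all promoter windows. TATAAA, the TATA box spelling, was in 80.0% of H1, 64.7% of H2A, 46.7% of H2B, 40.0% of H3 and 72.7% of H4 windows, against 13.6% of all. The octamer ATTTGCAT was in 46.7% of H2B and 35.3% of H2A windows, in none of the H1, H3 or H4 windows, and in 1.74% of all. The promoters of the H2A genes whose levels dominate the results below, and of H2ac18, which moved the other way, are shown 5′ to 3′ along the gene, with CCAAT and TATAAA on either strand in capitals.
H2ac22 promoter, chr13:21787199-21787498, minus strand: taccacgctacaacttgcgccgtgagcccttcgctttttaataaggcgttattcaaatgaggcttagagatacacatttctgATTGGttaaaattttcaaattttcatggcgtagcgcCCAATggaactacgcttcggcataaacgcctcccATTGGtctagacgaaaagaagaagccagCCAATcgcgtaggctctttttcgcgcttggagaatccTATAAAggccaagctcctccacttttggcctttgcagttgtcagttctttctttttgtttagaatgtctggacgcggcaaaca
H2ac23 promoter, chr13:21810117-21810416, plus strand: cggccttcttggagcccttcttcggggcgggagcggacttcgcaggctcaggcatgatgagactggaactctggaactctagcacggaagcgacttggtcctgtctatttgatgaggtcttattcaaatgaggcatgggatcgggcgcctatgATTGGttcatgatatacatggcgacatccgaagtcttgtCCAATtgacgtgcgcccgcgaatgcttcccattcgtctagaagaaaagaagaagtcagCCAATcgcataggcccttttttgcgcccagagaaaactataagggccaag
H2ac18 promoter, chr3:96245247-96245546, plus strand: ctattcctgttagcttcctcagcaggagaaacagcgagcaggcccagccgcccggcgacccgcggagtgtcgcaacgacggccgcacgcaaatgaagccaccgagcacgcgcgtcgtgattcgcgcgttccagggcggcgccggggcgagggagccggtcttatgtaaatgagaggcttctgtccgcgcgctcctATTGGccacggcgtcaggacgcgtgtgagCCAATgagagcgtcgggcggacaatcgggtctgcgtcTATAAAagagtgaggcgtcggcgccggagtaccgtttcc
The H2ac22 window held 4 CCAAT runs and 1 TATAAA, the H2ac23 window 3 CCAAT runs and no TATAAA, and the H2ac18 window 2 CCAAT runs and 1 TATAAA. The H2ac22 window overlaps that of H2bc22, an H2B gene read in the other direction. A match is a run of letters in the window and was not tested as a binding site.

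The libraries held 9574833 to 11070149 expected counts, RSEM's estimates of the reads from each gene, of which the members took 0.0132 to 0.153%. Levels are given as FPKM, fragments scaled by transcript length and by library depth. The labelled stages were checked against cell type markers. The summed FPKM of 5 ESC markers was 1860 to 1940 in ESC and 6.33 to 14.7 in RA EB and NPC. Summed neuron markers were at 2060 to 2230 FPKM in NPC and at 239 to 304 in RA EB, while the progenitor markers Pax6 and Sox1 averaged 17.4 and 4.98 FPKM in NPC against 50 and 19.3 in RA EB. With Nes and Sox2 added, the 4 progenitor markers summed to 110 to 137 FPKM in NPC against 189 to 208 in RA EB. The libraries labelled NPC had more of the neuron and less of these progenitor markers than RA EB. In bulk RNA, fewer cells of a type and less RNA per cell cannot be told apart, and whether the RNA was selected by its poly(A) tail is not given in the sources used here.

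Most members were barely detected. A mean of 1 FPKM or more over the 32 libraries was reached by 16 of the 61 listed members (26.2%), against 64.2% of all listed genes and 69.7% of protein-coding ones. Only 3 members averaged 10 FPKM or more, 29 were listed in fewer than 16 libraries, and 5 (H1f2, H2ac22, H2ac23, H2bc4 and H2bc21) were listed in all 32. By class, 10 of 17 listed H2A genes averaged 1 FPKM or more, against 3 of 16 H2B genes and 1 each of 5 H1, 11 H3 and 12 H4 genes.

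The exceptions were H2ac22, H2ac23 and H2ac24, H2A genes that lie near each other on chromosome 13, with H2bc22, H2bc23, H4c17 and H4c18 between them. H2ac23 averaged 876 FPKM and ranked 83 of 20612 genes by mean FPKM, and H2ac22 averaged 697 FPKM and ranked 110. H2ac24 averaged 24 FPKM and ranked 3455. The next member, H2ac13, averaged 8.91 FPKM and ranked 7412. Together H2ac22, H2ac23 and H2ac24 held 75.9 to 98.3% (median 96.5%) of all member counts in a library. The summed H2A level was 12.4 to 324 times the summed H2B level, although the nucleosome holds H2A and H2B in equal numbers.

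Many members are near copies of each other, and their reads cannot be assigned with certainty. Of 62 members with a transcript, 28 shared at least 50% of their 50-base windows with other members, and 4 (H1f1, H1f5, H2bc18 and H2bc21) shared none. H2ac23 and H2ac24 had 93.5% of their windows in common, H2ac22 and H2ac23 64.2%, and the chromosome 3 genes H2ac18 and H2ac19 100% (as a share of the shorter transcript). A median of 9.84% of the members' expected counts in a library were whole numbers, against 79.7% over all genes, as RSEM divides reads that match several genes among them. Joining members at 50% of the shorter transcript gave 7 sets covering 43 members. The largest was a set of 11 H2A genes (H2ac4, H2ac6, H2ac7, H2ac8, H2ac10 to H2ac13 and H2ac22 to H2ac24). Values of a single near-identical gene are uncertain, and where members of a set were called the test of the set's sum is also given.

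**Figure D1:**
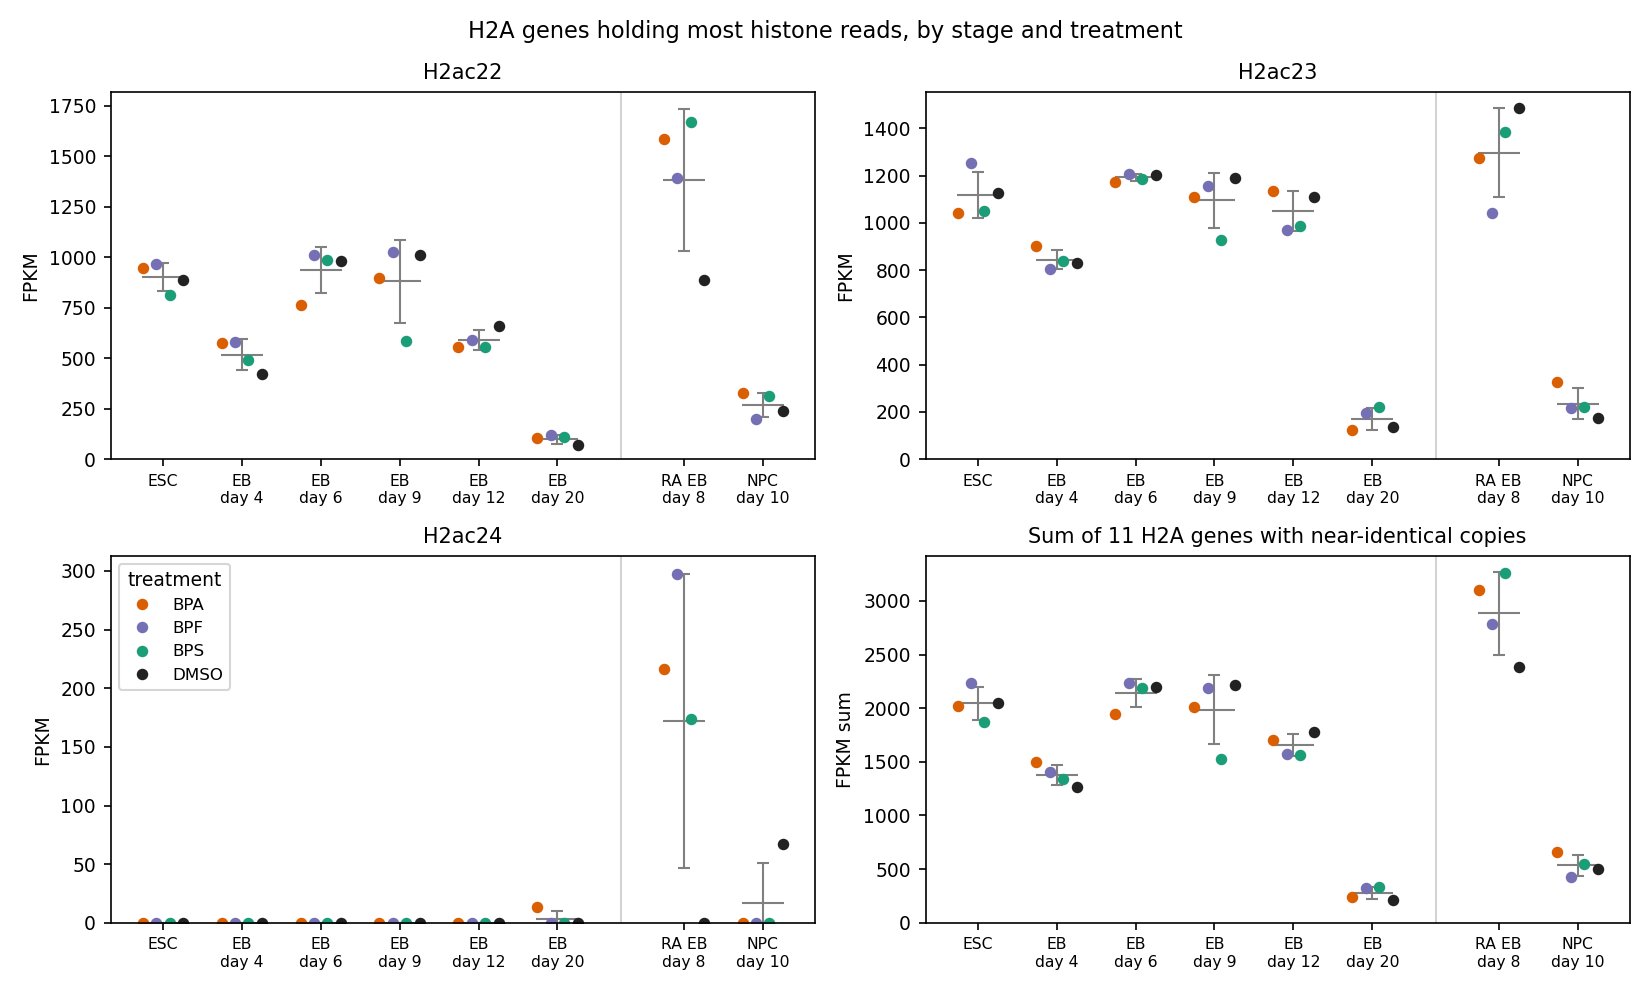
FPKM of H2ac22, H2ac23, H2ac24 and the sum of the 11 near-identical H2A genes in each of the 32 libraries, by stage. Each point is 1 library, with BPA, BPF, BPS and DMSO from left to right within a stage, and the grey bar is the mean ± SD of the 4. H2ac22 and H2ac23 were lowest in EB day 20, at 68.1 to 120 and 125 to 221 FPKM, and H2ac24 was above 0 in 5 libraries.

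H2ac22 and H2ac23 were high from ESC to EB day 12 and low in both end stages. H2ac23 (gene ID 665433, chromosome 13, 21810367 to 21810918) averaged 1120 ± 97.6 FPKM in ESC, 845 ± 41.6 in EB day 4, 1190 ± 16.1 in EB day 6, 1100 ± 116 in EB day 9, 1050 ± 84.7 in EB day 12 and 170 ± 46.4 in EB day 20, and 1300 ± 189 in RA EB and 236 ± 65.4 in NPC (SD, n = 4 each). H2ac22 (gene ID 319170, chromosome 13, 21786774 to 21787248) averaged 903 ± 69.8, 517 ± 75.8, 936 ± 116, 880 ± 204, 589 ± 50.2 and 99.8 ± 22.2 FPKM along the same ESC and EB stages, and 1380 ± 352 in RA EB and 268 ± 61.3 in NPC. H2ac22 took 28 to 52.8% of the counts of the 3 genes, with its highest share in NPC.

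EB day 20 set against EB day 12 gave the largest drop. H2ac23 stood at 125, 197, 221 and 136 FPKM in EB day 20 (BPA, BPF, BPS and DMSO libraries in that order, here and below), against 1140, 969, 989 and 1110 FPKM in EB day 12. H2ac22 stood at 103, 120, 108 and 68.1 FPKM in EB day 20, against 555, 588, 554 and 661 FPKM in EB day 12. For both genes all 4 later libraries were below all 4 earlier ones. In edgeR's quasi-likelihood test over 15632 genes, H2ac23 fell by 2.74 ± 0.16 on the log2 scale (SE, adjusted p = 2e-14) and H2ac22 by 2.69 ± 0.2 (adjusted p = 2.8e-12).

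The neural branch showed a drop of similar size. H2ac23 stood at 328, 218, 222 and 174 FPKM in NPC, against 1280, 1040, 1380 and 1480 FPKM in RA EB. H2ac22 stood at 326, 198, 312 and 238 FPKM in NPC, against 1580, 1390, 1670 and 885 FPKM in RA EB. The NPC libraries were below the RA EB libraries throughout, and H2ac23 fell by 2.39 ± 0.16 on the log2 scale (adjusted p = 1.2e-13) and H2ac22 by 2.29 ± 0.19 (adjusted p = 1.9e-11). Set against EB day 20, H2ac22 was higher in NPC, by 1.66 ± 0.2 (adjusted p = 2e-08), while the difference of H2ac23, 0.69 ± 0.16, did not reach the fold required for a call.

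A member was called between stages at an adjusted p under 0.05 and a log2 difference of at least 1. H2ac22 was called higher in RA EB than in EB day 4, with 1580, 1390, 1670 and 885 FPKM against 574, 583, 489 and 423 FPKM (1.32 ± 0.18 on the log2 scale, adjusted p = 3.4e-07). H2ac23 was at 1280, 1040, 1380 and 1480 FPKM in RA EB and at 903, 805, 839 and 831 FPKM in EB day 4. Its difference of 0.51 ± 0.15 (adjusted p = 0.003) was below the fold for a call. The sum of the 11 near-identical H2A genes also stayed below it, at 0.91 ± 0.13 (adjusted p = 3.5e-07).

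H2ac24 (gene ID 319171, chromosome 13, 21833024 to 21833475) was absent from 27 libraries and counted there as 0, since the files list only genes above 0. It stood at 216, 297 and 174 FPKM in the BPA, BPF and BPS libraries of RA EB and at 0 in DMSO, at 13.2 FPKM in the BPA library of EB day 20 and at 67.4 FPKM in the DMSO library of NPC. It was called higher in RA EB than in EB day 4, where it was absent from all 4 libraries, and no fold is given. H2ac24 was tested only because 3 RA EB libraries took it past the filter on low counts. That call therefore depends on the group in which it was high. With its near-identical genes summed, the set of 11 held 3105, 2783, 3261 and 2387 FPKM in RA EB.

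That set behaved much as its main genes did. It averaged 277 ± 57.3 FPKM in EB day 20 and 1650 ± 104 in EB day 12 (SD, n = 4 each), a fall of 2.70 ± 0.14 on the log2 scale (adjusted p = 9e-16). It averaged 534 ± 95.4 FPKM in NPC and 2880 ± 386 in RA EB, a fall of 2.36 ± 0.13 (adjusted p = 4.3e-15). NPC was 1.12 ± 0.13 above EB day 20 (adjusted p = 1.6e-08). Earlier differences were smaller than the fold for a call: EB day 4 stood 0.53 ± 0.13 below ESC (adjusted p = 0.00058) and EB day 6 0.57 ± 0.13 above EB day 4 (adjusted p = 4e-04).

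The low H2A members on chromosome 13 gave further calls. H2ac15 stood at 0.43, 0.81, 0.57 and 0 FPKM in EB day 20, against 3.25, 2.34, 4.26 and 5.34 FPKM in EB day 12, a fall of 2.7 ± 0.55 on the log2 scale (adjusted p = 9e-05). It stood at 0.94, 0, 0.96 and 0 FPKM in NPC, against 2.9, 2.9, 4.02 and 4.02 FPKM in RA EB, a fall of 2.37 ± 0.55 (adjusted p = 0.00038). Neither pair of groups overlapped. H2ac11 was absent from all EB day 20 libraries, against 3.18, 2.08, 3.37 and 1.18 FPKM in EB day 12, and was called lower (adjusted p = 0.0036). H2ac8 was called higher in NPC, at 2.08, 1.58, 2.12 and 1.15 FPKM, than in EB day 20, at 1.05, 0, 0.76 and 0 FPKM (1.78 ± 0.64, adjusted p = 0.014). H2ac8 and H2ac11 belong to the set of 11, so their own values are uncertain. H2ac15 lies outside that set but shared 52.3% of its windows with other members, 43.3% with H2ac23. Its values are therefore uncertain too, and its falls are not separate from those of H2ac23. The H2ac8 call was lost without the BPF libraries (adjusted p = 0.095) and without the BPS libraries (adjusted p = 0.053).

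On chromosome 3, the near-identical H2A genes H2ac18 and H2ac19 moved the other way. H2ac18 (gene ID 15267, chromosome 3, 96245497 to 96246052) shares 89.2% of its windows with H2ac19 (gene ID 319192, 96239779 to 96240374). H2ac19 shares all of its own with H2ac18, so their sum is given. The other H2A genes there, H2ac20 and H2ac21, did not pass the filter on low counts and reached at most 1.17 and 0.96 FPKM. The sum of H2ac18 and H2ac19 stood at 11.3, 12.9, 13.9 and 11.2 FPKM in EB day 20, against 6.37, 5.4, 4.07 and 3.84 FPKM in EB day 12. It stood at 11.2, 12.1, 12.2 and 13.2 FPKM in NPC, against 2.88, 1.61, 3.44 and 2.11 FPKM in RA EB. The sum rose by 1.19 ± 0.21 on the log2 scale in EB day 20 (adjusted p = 1.9e-05) and by 2.27 ± 0.23 in NPC (adjusted p = 8.8e-10), with no overlap between libraries in either comparison. It averaged 2.19 ± 0.896 FPKM in ESC and 12.3 ± 1.3 in EB day 20, and fell in EB day 6 against EB day 4 by 1.12 ± 0.26 (adjusted p = 8e-04). Taken alone, H2ac18 was called lower in EB day 6, at 0, 0, 1.48 and 0 FPKM, than in EB day 4, at 4.79, 2.55, 3.63 and 0 FPKM, with an overlap at 0 (-2.5 ± 0.89, adjusted p = 0.02). That call was lost without the BPA (adjusted p = 0.16) or the BPF libraries (adjusted p = 0.096). It was called higher in NPC, at 11.2, 12.1, 12.2 and 5.91 FPKM, than in RA EB, at 0, 0, 3.44 and 2.11 FPKM (2.84 ± 0.7, adjusted p = 0.00067). H2ac19 alone was not called between stages.

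**Figure D2:**
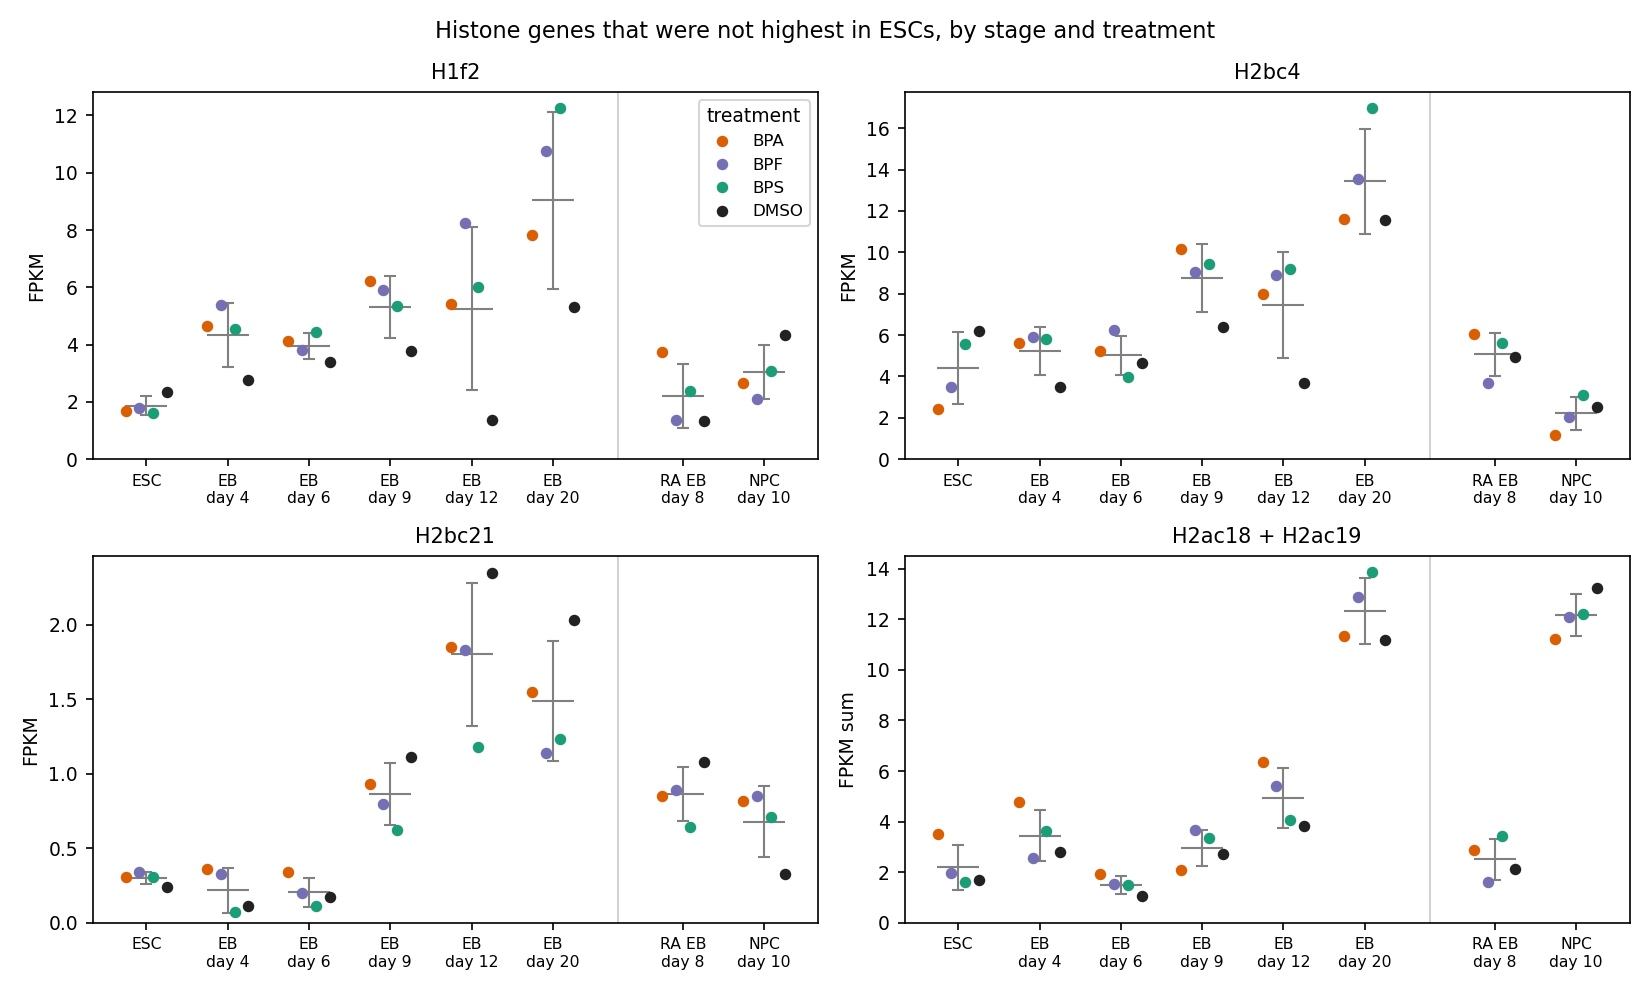
FPKM by stage of H1f2, H2bc4, H2bc21 and the sum of H2ac18 and H2ac19, members that were not highest in ESC, each point 1 library (BPA, BPF, BPS and DMSO from left to right) with the mean ± SD of 4 in grey. The H2ac18 and H2ac19 sum was at 11.2 to 13.9 FPKM in EB day 20 and 11.2 to 13.2 in NPC, while H1f2 and H2bc4 had their highest means in EB day 20 and H2bc21 in EB day 12.

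Among the H2B genes, H2bc4 (gene ID 68024, chromosome 13, 23684199 to 23692480) had the highest mean, 6.45 FPKM. It averaged 4.42 ± 1.75 FPKM in ESC, 5.22 ± 1.16 in EB day 4, 5.03 ± 0.952 in EB day 6, 8.74 ± 1.65 in EB day 9, 7.44 ± 2.56 in EB day 12 and 13.4 ± 2.53 in EB day 20, and 5.08 ± 1.03 in RA EB and 2.21 ± 0.805 in NPC. It stood at 1.19, 2.06, 3.1 and 2.51 FPKM in NPC, against 11.6, 13.5, 17.0 and 11.6 FPKM in EB day 20, where no library overlapped (-2.34 ± 0.29, adjusted p = 4e-08). It was also lower in NPC than in RA EB, which stood at 6.06, 3.69, 5.62 and 4.95 FPKM (-1.12 ± 0.3, adjusted p = 0.0016). Without the BPA libraries that difference was -0.83 and short of the fold for a call.

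H2bc21 (gene ID 319190, chromosome 3, 96221072 to 96223738), an H2B gene that shares no window with another member, stayed under 2.4 FPKM but was called often. It stood at 0.93, 0.8, 0.62 and 1.11 FPKM in EB day 9, against 0.34, 0.2, 0.11 and 0.17 FPKM in EB day 6, with no overlap (1.84 ± 0.33, adjusted p = 3.5e-05). It reached 1.85, 1.83, 1.18 and 2.35 FPKM in EB day 12, again above every EB day 9 library (1.0 ± 0.27, adjusted p = 0.0036). Without the BPF libraries this difference was 0.96, short of the fold. In RA EB it stood at 0.85, 0.89, 0.64 and 1.08 FPKM, against 0.36, 0.33, 0.07 and 0.11 FPKM in EB day 4 (1.75 ± 0.33, adjusted p = 2.9e-05). On the log2(FPKM + 1) scale, which understates changes of low genes, limma gave 0.63, 0.58 and 0.62 for these differences, short of the fold.

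H2bc23 and H2bc12, the next H2B genes by mean level, averaged 1.23 and 1.22 FPKM over all libraries. H2bc23 stood at 0.35, 0.07, 0.7 and 1.17 FPKM in EB day 6, against 2.25, 0.98, 2.29 and 2.2 FPKM in EB day 4 (-1.41 ± 0.47, adjusted p = 0.014). It was called higher in EB day 20, at 1.26, 2.43, 2.45 and 1.44 FPKM, than in EB day 12, at 1.86, 0.1, 0.06 and 0.09 FPKM, although the groups overlapped through the BPA library (1.22 ± 0.47, adjusted p = 0.023). NPC, at 0.54, 0.54, 0.05 and 0 FPKM, was called lower than EB day 20 (-1.96 ± 0.52, adjusted p = 0.0013) and than RA EB, at 1.41, 1.21, 0.54 and 1.51 FPKM (-1.36 ± 0.54, adjusted p = 0.025). The H2bc23 call was lost in EB day 6 without the BPA (adjusted p = 0.063) or BPF libraries (adjusted p = 0.057), in EB day 20 against EB day 12 without the BPF (adjusted p = 0.11) or BPS libraries (adjusted p = 0.2), and in NPC against RA EB without the DMSO libraries (adjusted p = 0.12). Of the H2bc23 windows, 80.8% occurred in genes outside the members, which summing members does not settle. In EB day 12 the BPF, BPS and DMSO libraries held 2.17, 1.28 and 1.88 expected counts of H2bc23. Its deposited length there ranged from 485 to 2121 bases. H2bc12 was not called between stages and ranged from 0 to 4.0 FPKM. H2bc4, H2bc12 and H2bc23 belong to a set of 10 near-identical H2B genes. The set itself was short of the fold for a call in EB day 6 against EB day 4 (-0.56 ± 0.18, adjusted p = 0.0084) and in EB day 20 against EB day 12 (0.61 ± 0.17, adjusted p = 0.0022). The set averaged 4.04 ± 0.752 FPKM in NPC, 16.8 ± 2.97 in EB day 20 and 9.6 ± 1.69 in RA EB, and was lower in NPC than in EB day 20 by 1.93 ± 0.19 (adjusted p = 4.3e-10) and than in RA EB by 1.13 ± 0.19 (adjusted p = 6.9e-06).

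H1f2 (gene ID 50708, chromosome 13, 23738807 to 23739531) was the main H1 gene, with a mean of 4.38 FPKM against 0.53 for H1f4 and 0.452 for H1f1. It averaged 1.86 ± 0.329 FPKM in ESC, 4.34 ± 1.1 in EB day 4, 3.94 ± 0.459 in EB day 6, 5.32 ± 1.08 in EB day 9, 5.26 ± 2.86 in EB day 12 and 9.04 ± 3.08 in EB day 20, and 2.21 ± 1.13 in RA EB and 3.05 ± 0.952 in NPC. It stood at 4.65, 5.38, 4.55 and 2.78 FPKM in EB day 4, against 1.7, 1.78, 1.63 and 2.35 FPKM in ESC, and rose by 1.15 ± 0.34 on the log2 scale (adjusted p = 0.0043). It was lower in RA EB, at 3.73, 1.38, 2.39 and 1.32 FPKM, than in EB day 4 (-1.04 ± 0.33, adjusted p = 0.0067), with overlap, and lower in NPC, at 2.65, 2.12, 3.09 and 4.35 FPKM, than in EB day 20, at 7.82, 10.8, 12.3 and 5.33 FPKM (-1.22 ± 0.31, adjusted p = 0.00098), without overlap. The rise in EB day 4 missed the threshold without the BPS libraries (1.06, adjusted p = 0.051), and the difference in RA EB without the BPF libraries (-0.79, adjusted p = 0.075).

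H1f1 (gene ID 80838, chromosome 13, 23763668 to 23764412) went the opposite way at the start. It stood at 0.67, 1.08, 0.27 and 0.54 FPKM in EB day 4, against 2.59, 1.81, 1.55 and 1.41 FPKM in ESC, with no overlap. H1f1 passed the filter on low counts only through the 4 ESC libraries, so its test there is not given as a result, although it is counted among the calls and marked red in the plot of differences between stages. It fell in EB day 6 against EB day 4, to 0.13, 0, 0.26 and 0.39 FPKM, where the BPS library of EB day 4 lay within their range (-1.29 ± 0.49, adjusted p = 0.03). It was called lower in NPC, at 0, 0, 0.14 and 0.14 FPKM, than in RA EB, at 0.51, 0.25, 0.38 and 0.41 FPKM (-1.32 ± 0.53, adjusted p = 0.029). These calls rest on few reads. A library held 0 to 3 expected counts in EB day 6 against 2 to 8 in EB day 4, and 0 to 1 in NPC against 2 to 4 in RA EB. DESeq2 did not call H1f1 in EB day 6 (adjusted p = 0.056) or NPC (adjusted p = 0.063), and with any treatment left out it did not pass the filter on low counts. H1f4 did not pass the filter on low counts. Its level was 0.242 ± 0.249 FPKM in ESC and 1.07 ± 0.229 in RA EB, where it was highest.

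The H3 genes were highest in ESC as a class. H3c3 (gene ID 319148, chromosome 13, 23745042 to 23745521), the only H3 gene to average 1 FPKM, stood at 2.67, 2.32, 0.94 and 1.69 FPKM in EB day 4, against 4.07, 4.81, 6.23 and 3.34 FPKM in ESC, with no overlap (-1.21 ± 0.5, adjusted p = 0.037). This call was lost without the BPF (adjusted p = 0.083) or BPS libraries (-0.8, adjusted p = 0.26) and with DESeq2 (adjusted p = 0.096), limma at either pseudocount or no filter on low counts (adjusted p = 0.058), so 6 of 10 alternatives did not keep it. H3c3 reached the level of the filter on low counts in 7 libraries, 4 of them ESC, and without ESC it would not have been tested. Its call therefore depends on the group in which it was high. H3c3 was absent from all 4 EB day 20 libraries. H3c10 averaged 2.21 ± 0.948 FPKM in ESC and 0.912 ± 0.461 in RA EB, and at most 0.732 ± 0.498 in the other stages. H3c6 reached 0.92 ± 0.4 FPKM in EB day 4 and 0.565 ± 0.596 in ESC.

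The 9 near-identical H3 genes on chromosome 13 were tested as a sum. It averaged 9.99 ± 1.03 FPKM in ESC, 5.17 ± 1.2 in EB day 4, 2.45 ± 0.52 in EB day 6, 1.67 ± 0.468 in EB day 9, 1.73 ± 1.07 in EB day 12 and 0.865 ± 0.457 in EB day 20, and 3.17 ± 0.645 in RA EB and 0.907 ± 0.412 in NPC (SD, n = 4 each). It fell in EB day 6 against EB day 4 by 1.05 ± 0.3 (adjusted p = 0.0047), in EB day 20 against EB day 12 by 1.02 ± 0.38 (adjusted p = 0.02) and in NPC against RA EB by 1.42 ± 0.36 (adjusted p = 0.00086). The EB day 20 libraries, at 0.23, 0.84, 1.25 and 1.14 FPKM, overlapped those of EB day 12, at 0.6, 3.18, 1.47 and 1.66 FPKM. They held 1.0 to 5.43 expected counts of these genes, against 2.82 to 14.88. The sum was not retested with a treatment left out. EB day 4 stood 0.92 ± 0.27 below ESC (adjusted p = 0.0046), just short of the fold for a call.

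No H4 gene passed the filter on low counts, so the class was not tested. H4c9 (chromosome 13, 22040960 to 22041362) was the highest, with a mean of 1.48 FPKM. It averaged 2.5 ± 0.903 FPKM in ESC, 1.82 ± 1.16 in EB day 4, 1.13 ± 0.615 in EB day 20, 1.72 ± 0.669 in RA EB and 0.46 ± 0.641 in NPC. H4c4 and H4c18 averaged 0.448 and 0.343 FPKM over all libraries, and H4c18 was absent from all 4 EB day 6 libraries. H4c17 and H4c18 are near-identical, and their sum averaged 1.15 ± 0.541 FPKM in ESC and at most 0.655 ± 0.49 in the other stages.

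**Figure D3:**
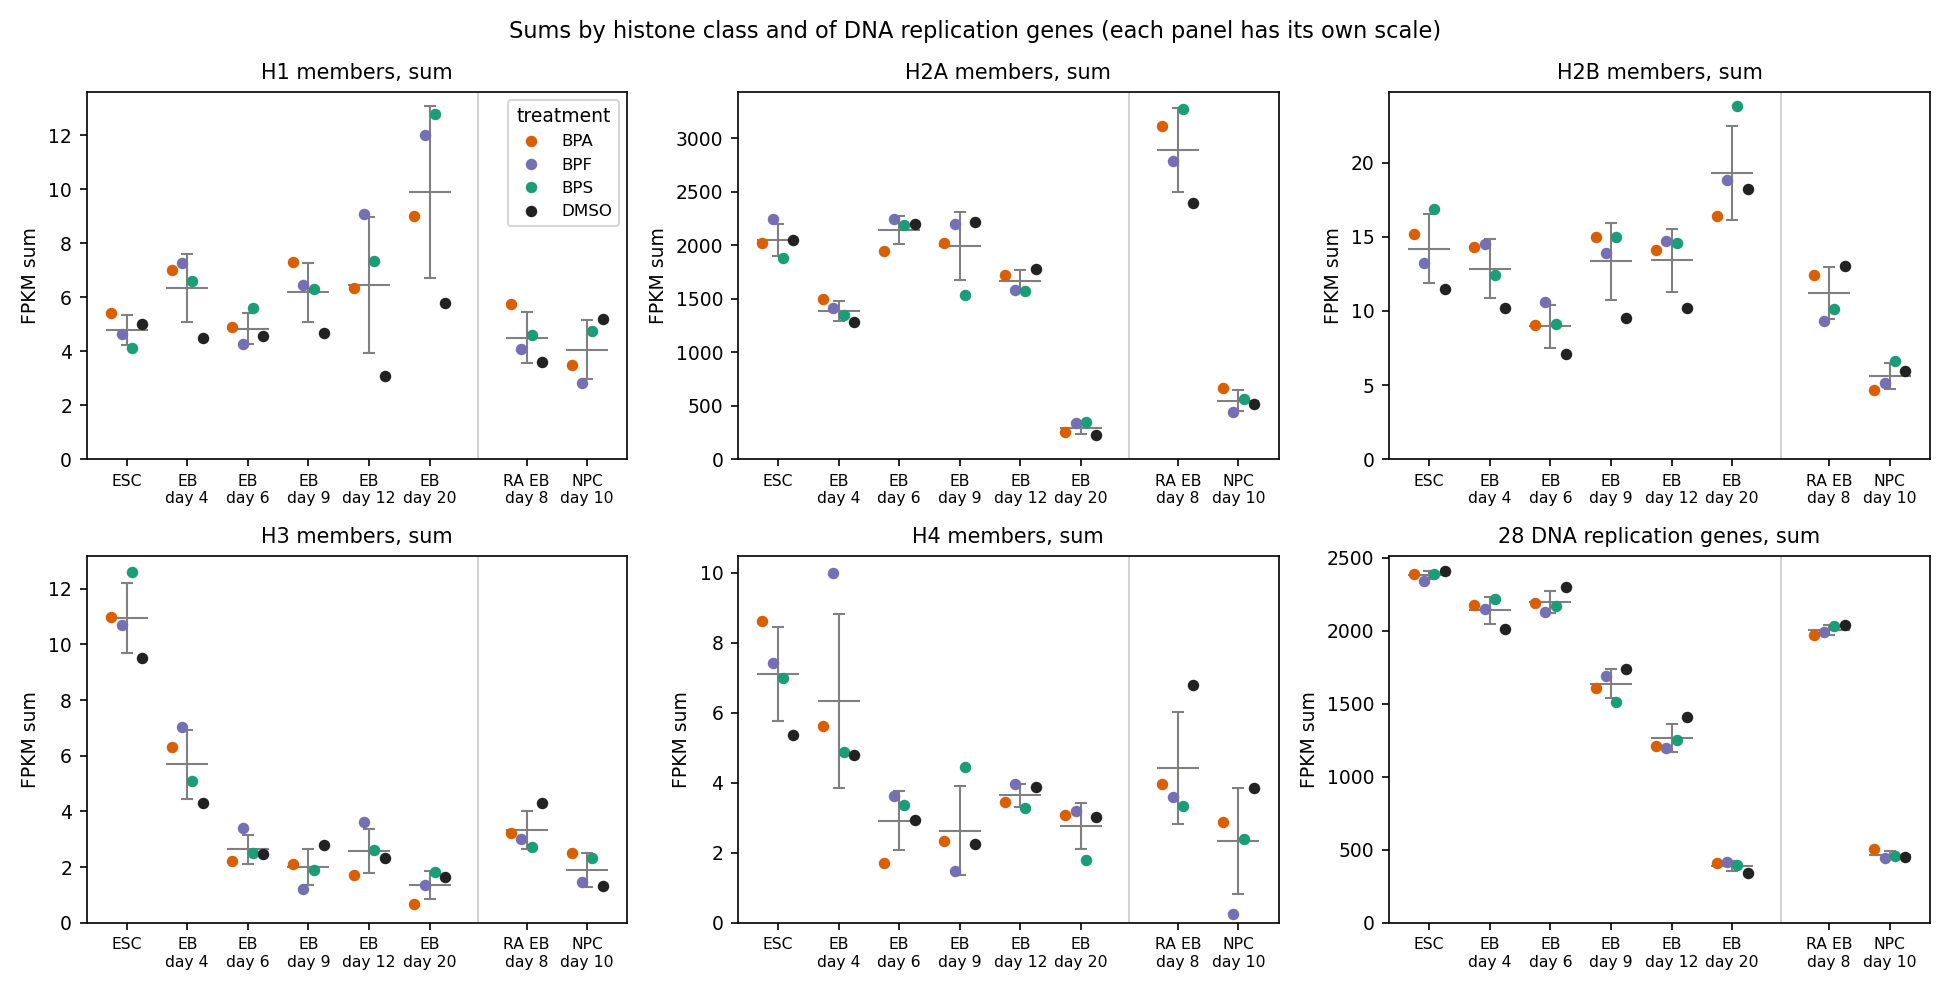
Summed FPKM of each histone class and of 28 DNA replication genes by stage, each panel on its own linear scale, each point 1 library (BPA, BPF, BPS and DMSO from left to right) with the mean ± SD of 4 in grey. The H2A sum was at 226 to 344 FPKM in EB day 20, the H3 sum was highest in ESC (9.51 to 12.6) and the H1 and H2B sums were highest in EB day 20.

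Summed by class, the members did not move together. The H2A sum averaged 291 ± 58.6 FPKM in EB day 20, 547 ± 95.4 in NPC and 2050 ± 151 in ESC (SD, n = 4 each), log2 ratios over ESC of -2.82 and -1.90. H2ac22, H2ac23 and H2ac24 carried this difference, as the remaining H2A genes summed to 17.8 ± 2.88, 26.3 ± 10.2 and 27.9 ± 9.55 FPKM in these stages. Without the genes in sets of near-identical members the H2A ratios were -0.82 and -1.29. The H2A genes left in are low and not free of shared reads, as H2ac15 shared 52.3% of its windows. In the same stages the H3 sum averaged 1.37 ± 0.507, 1.9 ± 0.6 and 11 ± 1.27 FPKM, ratios of -3.00 and -2.53, and the H4 sum 2.77 ± 0.657, 2.34 ± 1.51 and 7.1 ± 1.35 FPKM, ratios of -1.36 and -1.60. The H1 sum averaged 9.91 ± 3.21, 4.06 ± 1.1 and 4.8 ± 0.551 FPKM, ratios of 1.04 and -0.24. The H2B sum averaged 19.3 ± 3.17, 5.59 ± 0.891 and 14.2 ± 2.36 FPKM, ratios of 0.44 and -1.34. Without the genes in such sets the ratios were 1.03 and 0.33, so the direction of the H2B sum in NPC turned on those genes. Some H2B genes left in also share windows, such as H2bc3 with 40.1%. No test was made of class sums.

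Taken singly, more members had lower than higher means in EB day 20 and NPC than in ESC. In EB day 20, 41 of 61 members (67.2%) had a lower mean than in ESC and 17 (27.9%) a higher one, against 39.7% and 56.0% of all listed genes. In NPC, 40 members (65.6%) were lower than in ESC and 17 higher, against 46.5% and 46.7% of all listed genes. Of the 11 listed H3 genes, 10 were lower in EB day 20 than in ESC, but 9 of the 11 form 1 near-identical set. As 45 members averaged under 1 FPKM and many share reads, these counts rest largely on few reads and are not independent. The shares of all listed genes were not matched for level. The highest stage mean fell in ESC for 18 members, in EB day 4 for 12, in RA EB for 11, and in 3 to 5 members for each other stage. By location, the chromosome 3 members summed to 15.4 ± 0.66 FPKM in EB day 20, 15.1 ± 0.877 in NPC and 4.08 ± 1.04 in ESC. The chromosome 13 members other than H2ac22, H2ac23 and H2ac24 summed to 35.8 ± 4.65, 25.0 ± 11.2 and 60.9 ± 7.41 FPKM in the same stages.

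**Figure D4:**
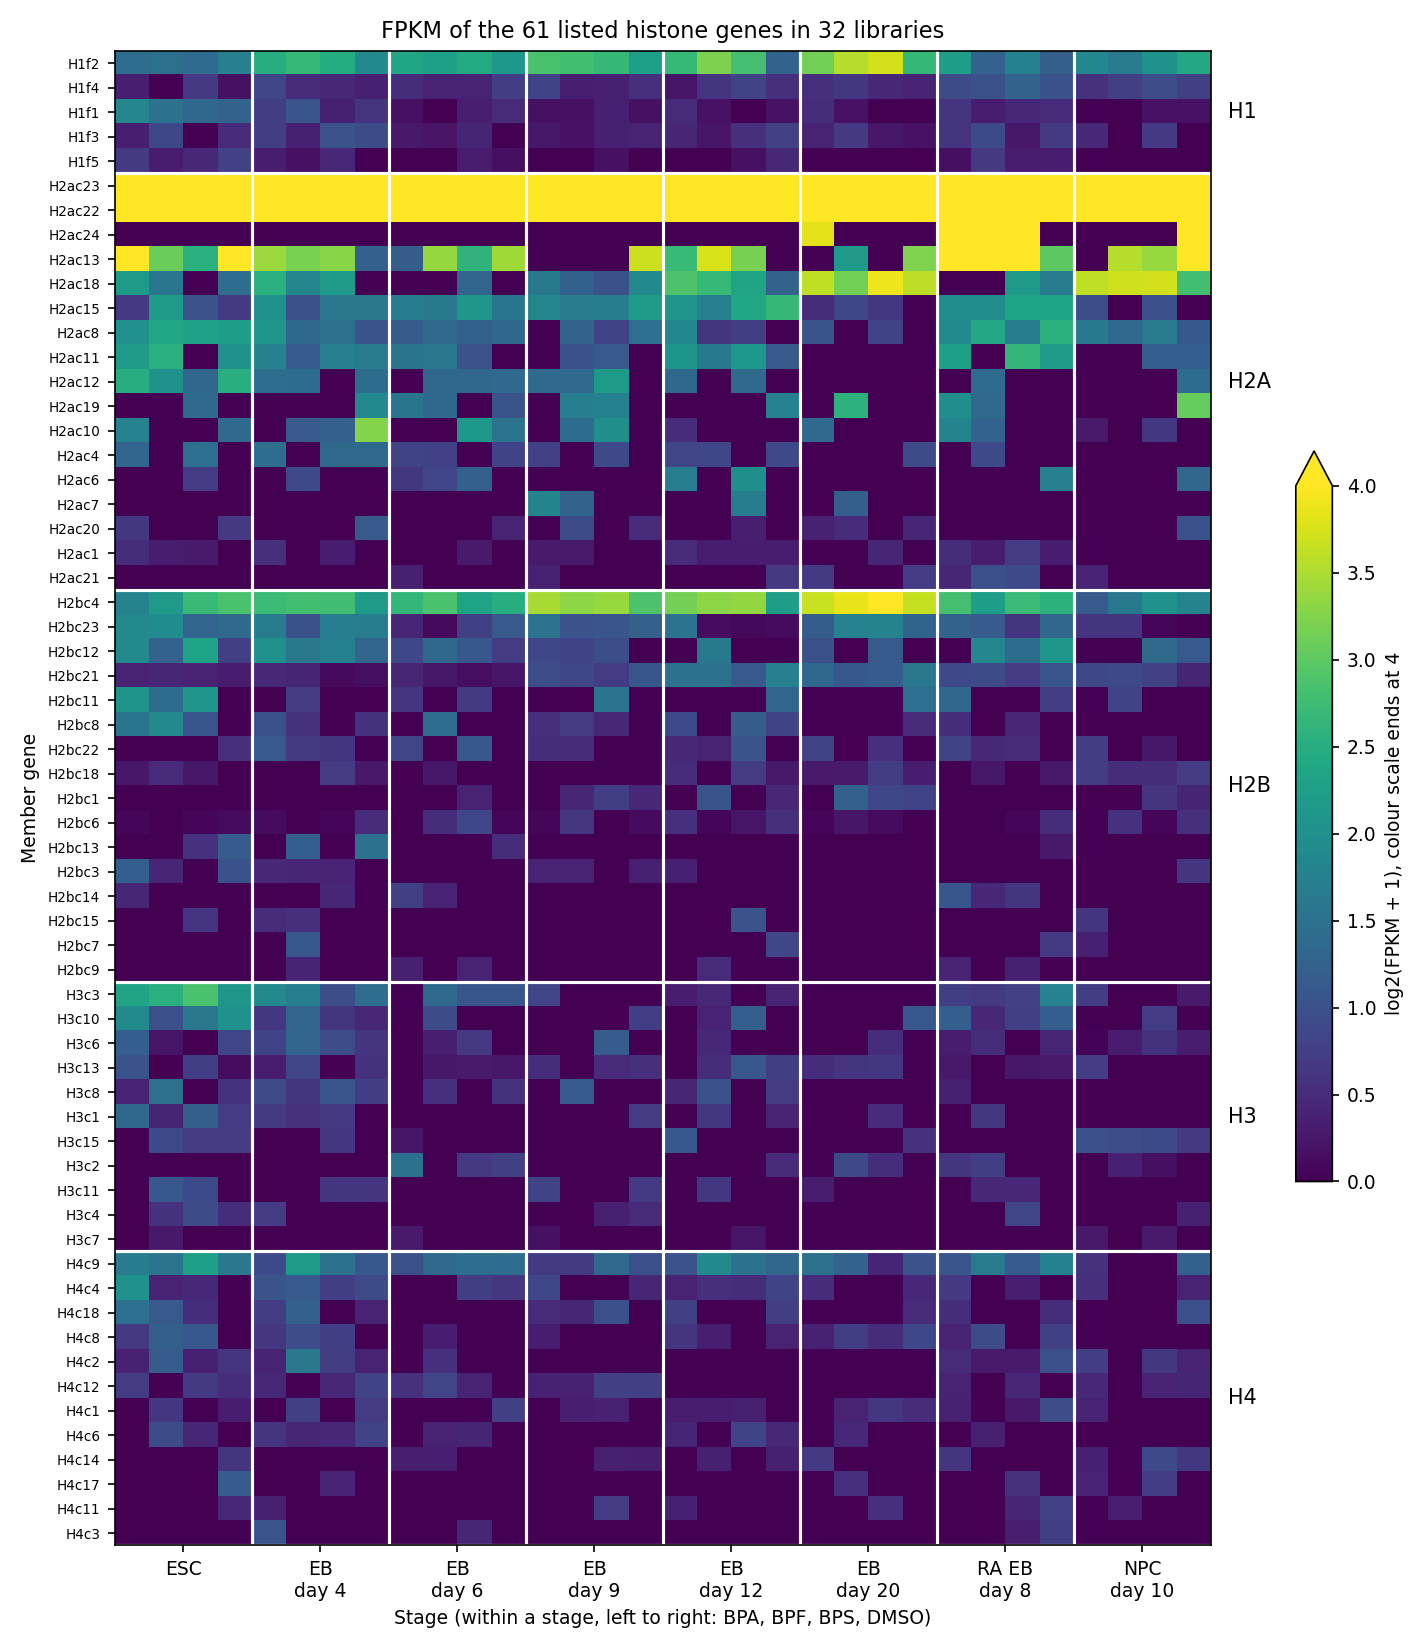
Log2(FPKM + 1) of the 61 listed members (down the page, by class) in the 32 libraries (across, by stage, with BPA, BPF, BPS and DMSO from left to right), on a colour scale that ends at 4. Most cells are near 0, H2ac22 and H2ac23 are at the end of the scale in every library, and H2ac24 leaves 0 in 5 libraries.

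Only 18 members passed the filter of 1 CPM (counts scaled to library size) in 4 libraries (H1f1, H1f2, 11 H2A genes, 4 H2B genes and H3c3), so the counts below speak of those 18 and a member can pass through the group in which it is high. EB day 4 against ESC called 1 member higher and 2 lower, beside 14.3% and 13.4% of all tested genes. The 2 lower were H1f1 and H3c3, which both passed the filter through ESC. EB day 6 against EB day 4 called 0 higher and 3 lower (all genes, 10.5% and 8.55%); besides H2bc23 and H1f1, H2ac18 was lower, and its own reads are shared with H2ac19. EB day 9 against EB day 6 called 1 higher and 0 lower (10.5% and 3.86%), and EB day 12 against EB day 9 also 1 higher and 0 lower (7.33% and 2.26%), H2bc21 each time. The median log2 difference of the 18 was between -0.3 and -0.08 in these comparisons, against 0 to 0.03 over all genes except for -0.01 in the last.

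The remaining comparisons are given with the shares of all genes beside them, and H2ac22 and H2ac23, which share reads, are counted separately. EB day 20 against EB day 12 called 1 member higher and 4 lower, beside 17.4% and 8.62% of all genes, with a median log2 difference of -0.28 against 0. RA EB against EB day 4 called 3 higher and 1 lower (18.8% and 15.5%), with medians of 0.18 and 0.03. Among the 3 higher was H2ac24, which passed the filter through RA EB. NPC against RA EB called 1 higher and 6 lower (17.9% and 17.0%), with medians of -1.34 and -0.01. NPC against EB day 20 called 2 higher and 3 lower (9.88% and 23.7%), with medians of 0.51 and -0.05. With near-identical members summed to 8 features, these comparisons called 1 higher and 3 lower, 1 and 1, 1 and 5, and 1 and 2.

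**Figure D5:**
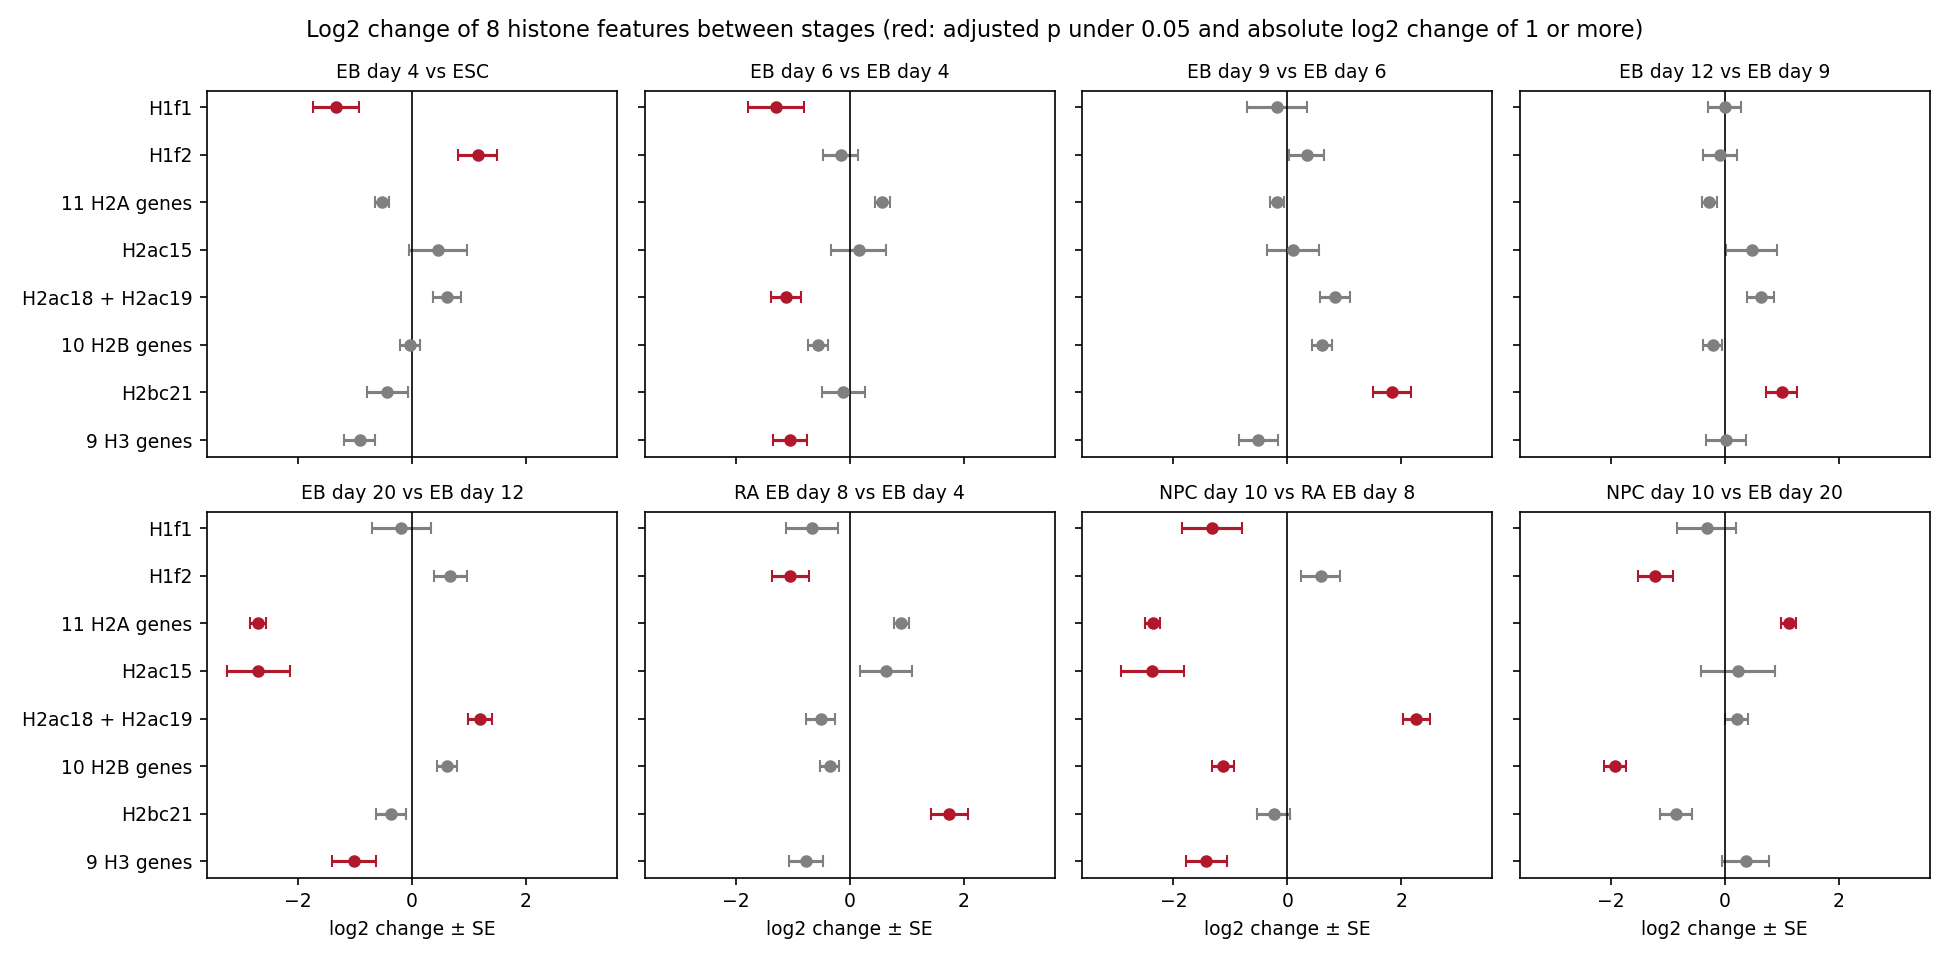
Log2 difference ± SE (edgeR) of 8 histone features, near-identical members summed, in the 8 comparisons between stages, with the first-named stage over the second. Red points were called. The 11 H2A genes lie at -2.70 in EB day 20 against EB day 12 and at -2.36 in NPC against RA EB, while H2ac18 and H2ac19 together lie at 1.19 and 2.27.

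S-phase genes outside the histone clusters were compared over the same stages. Of 28 genes of DNA replication, 0 were called higher and 26 lower in EB day 20 against EB day 12, with Rrm2, the ribonucleotide reductase subunit, at -2.69 and Uhrf1, which maintains DNA methylation on new strands, at -2.52 on the log2 scale. In NPC against RA EB 0 were higher and 27 lower, with the helicase subunit gene Mcm6 at -2.94 and the licensing factor gene Cdt1 at -2.73. In EB day 4 against ESC 0 were higher and 2 lower. In RA EB against EB day 4 2 were higher (E2f2 2.47, Ccne2 1.11) and 0 lower, and in NPC against EB day 20 4 were higher (among them Gins1 1.43 and Fen1 1.21) and 0 lower. The summed FPKM of the 28 genes averaged 2380 in ESC, 2140 in EB day 4, 2200 in EB day 6, 1630 in EB day 9, 1270 in EB day 12 and 391 in EB day 20, and 2010 in RA EB and 464 in NPC. Across these 8 stage means its Pearson correlation was 0.82 with the H2A sum, 0.64 with H3, 0.68 with H4, -0.08 with H2B and -0.47 with H1. By rank (Spearman) these were 0.71, 0.9, 0.71, -0.12 and -0.31. For all members except H2ac22, H2ac23 and H2ac24 the correlation was 0.35 (0.26 by rank), and for those 3 genes 0.82. This is a description over stages that share the same libraries.

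Slbp, which binds the stem-loop, averaged 62.2 ± 3.14 FPKM in ESC, 52.4 ± 4.14 in EB day 4, 61.5 ± 3.96 in EB day 6, 44.0 ± 2.56 in EB day 9, 41.8 ± 3.29 in EB day 12 and 23.3 ± 0.973 in EB day 20, and 69.9 ± 3.67 in RA EB and 32.3 ± 1.61 in NPC. It was called lower in NPC against RA EB (-1.04 ± 0.07, adjusted p = 2e-13), while in EB day 20 against EB day 12 its difference of -0.95 ± 0.07 (adjusted p = 4.1e-12) was short of the fold. Of 17 genes of histone mRNA processing and transcription, 1 was higher (Lsm11, 1.2) and 3 lower in EB day 20 against EB day 12, among them Ncbp1 (-1.17) and Zfp473 (-1.06). Lsm11 and Zfp473 act with the U7 snRNP that cuts histone mRNA. In NPC against RA EB 0 were higher and 2 lower, Slbp and Zfp473 (-1.86). Of 20 histone chaperone genes, whose products carry new histones to DNA, 0 were higher and 10 lower in each of these comparisons, with Asf1b at -2.46 and -2.39.

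The replication-independent variants were at higher levels than most members. H3f3a, which encodes H3.3, averaged 716 ± 31.0 FPKM in EB day 20 and 482 ± 18 in ESC, and 1270 ± 70.8 in NPC and 1030 ± 58.5 in RA EB. H3f3b, the other H3.3 gene, averaged 621 ± 70.4 FPKM in EB day 20 and 337 ± 12.0 in ESC, and 642 ± 51.2 in NPC and 506 ± 48.6 in RA EB. H1f0, the linker histone of resting cells, averaged 17.5 ± 1.39 FPKM in ESC, 225 ± 21.3 in EB day 12 and 85.1 ± 7.54 in EB day 20, and fell by 1.51 ± 0.1 on the log2 scale in EB day 20 against EB day 12 (adjusted p = 9.3e-14). H2ax, the H2A variant that marks DNA breaks, averaged 59.4 ± 4.6 FPKM in EB day 20 against 190 ± 14.0 in EB day 12, and 62.9 ± 8.29 in NPC against 161 ± 20.8 in RA EB. H2az1, which encodes H2A.Z, averaged 133 ± 2.68 FPKM in EB day 20 against 339 ± 9.33 in EB day 12, and 227 ± 14.3 in NPC against 506 ± 33.3 in RA EB. H2ax and H2az1 were called lower in both comparisons, by 1.79 ± 0.09 and 1.46 ± 0.07 in EB day 20 and by 1.28 ± 0.09 and 1.08 ± 0.06 in NPC. Of 12 variant genes, 0 were higher and 7 lower in EB day 20 against EB day 12, and 1 was higher (H2bu2, 3.06) and 3 lower in NPC against RA EB.

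The bisphenols were compared with DMSO over the 8 stages, each at 100 nM. No member was called at an adjusted p under 0.05 for the bisphenols together, or for BPA, BPF or BPS alone, beside 2.73%, 0.166%, 0.992% and 1.15% of all genes. DESeq2 and limma also called none. Without the NPC libraries H1f2 was called for the bisphenols together (0.69, adjusted p = 0.03), and H2ac24, absent from most libraries, was called for the bisphenols together (adjusted p = 0.019), BPF (adjusted p = 0.034) and BPS (adjusted p = 0.04). At an unadjusted p under 0.05 edgeR's test gave 1, 0, 1 and 2 members. The smallest p for the bisphenols together was that of H1f2, at 0.5 ± 0.19 on the log2 scale (adjusted p = 0.17), followed by H2ac19 (-1.05 ± 0.77, adjusted p = 0.5). H1f2 also led each compound alone, at 0.47 ± 0.23 for BPA (adjusted p = 0.48), 0.49 ± 0.23 for BPF (adjusted p = 0.34) and 0.53 ± 0.23 for BPS (adjusted p = 0.24). The compounds share the same DMSO libraries. The next members were H2ac13 for BPA (-1.12 ± 0.69, adjusted p = 0.61), H2ac22 for BPF (0.17 ± 0.13, adjusted p = 0.6) and H2bc21 for BPS (-0.49 ± 0.22, adjusted p = 0.24). The 11 near-identical H2A genes differed between bisphenols and DMSO by 0.06 (95% interval -0.09 to 0.21). The 10 near-identical H2B genes differed by 0.24 (95% interval 0.03 to 0.45, adjusted p = 0.22), and under BPS by 0.34 ± 0.12 (adjusted p = 0.15).

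BPA, BPF and BPS differ in the bridge between their phenol rings, which is a carbon carrying methyl groups in BPA, a methylene in BPF and a sulfonyl in BPS. The 3 pairs were compared at the same dose and stages, with p-values adjusted over genes and the 3 pairs. No member differed between any pair in edgeR's test, and the smallest adjusted p was 1. Over genes alone, 0%, 0.0064% and 0% of all genes were called in BPA against BPF, BPA against BPS and BPF against BPS. At an unadjusted p under 0.05 there were 0, 1 and 0 members, the 1 being H2bc21, higher under BPA than BPS by 0.54 (95% interval 0.1 to 0.98). In BPA against BPF the smallest p belonged to H2ac13 (-0.88 ± 0.67) and H2bc23 (0.41 ± 0.32), and in BPF against BPS to H2bc21 (0.42 ± 0.22) and H2ac19 (0.99 ± 1.02). H1f1 came second in BPA against BPS (0.54 ± 0.35). The set of 11 H2A genes differed by 0.01 (-0.17 to 0.2), 0.03 (-0.15 to 0.22) and 0.02 (-0.17 to 0.2) in these pairs, and H1f2 by -0.02 (-0.53 to 0.5), -0.05 (-0.52 to 0.41) and -0.04 (-0.48 to 0.41).

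Within single stages the 3 bisphenol libraries were set against 1 DMSO library, which is assumed to vary like the others. ESC, EB day 4, EB day 6 and EB day 20 called 0 members, beside 0%, 0.563%, 2.55% and 19.6% of all genes, and edgeR's test gave 0, 4, 0 and 3 members at an unadjusted p under 0.05. DESeq2 also called 0 members in these stages, and limma 0 in the first 3 and 1 in EB day 20. The smallest p belonged to H2bc4 in ESC (-0.69 ± 0.37, adjusted p = 1), to H2ac10 in EB day 4 (adjusted p = 0.33), to H2ac11 in EB day 6 (adjusted p = 0.51) and to H1f2 in EB day 20. The next were H2ac15 in ESC (1.38 ± 0.86, adjusted p = 1), H2ac18 in EB day 4 (adjusted p = 0.37), H2bc23 in EB day 6 (-1.1 ± 0.78, adjusted p = 0.65) and H2ac13 in EB day 20 (adjusted p = 0.092).

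EB day 12 called 2 members, beside 18.9% of all genes. H1f2 stood at 5.42, 8.23 and 6.01 FPKM under BPA, BPF and BPS, against 1.38 FPKM in DMSO (2.08 ± 0.42, adjusted p = 0.00077). Its bisphenol libraries were also all above DMSO in 5 of the other stages and all below it in 2, ESC and NPC. In EB day 20 it stood at 7.82, 10.8 and 12.3 FPKM against 5.33 FPKM (0.86 ± 0.33, adjusted p = 0.065). H2bc4 in EB day 12 stood at 8.01, 8.89 and 9.2 FPKM against 3.68 FPKM (1.09 ± 0.39, adjusted p = 0.052), short of the threshold. The mesenchyme markers Col1a1, Col3a1, Lum and Dcn summed to 328, 350 and 343 FPKM under the bisphenols in EB day 12 against 19.1 FPKM in DMSO, to 930, 1020 and 1010 against 82.9 in EB day 20, and to 153, 136 and 151 against 323 in NPC. All 4 of these markers were detected, and their part in the H1f2 difference was not tested.

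The other calls within stages concerned near-identical H2A genes. H2ac13 was absent from the bisphenol libraries of EB day 9 and at 11.8 FPKM in DMSO (7.49% of all genes called), and in EB day 12 at 5.49, 12.6 and 8.04 FPKM against 0 in DMSO. In RA EB, where 2.34% of all genes were called, H2ac24 stood at 216, 297 and 174 FPKM against 0 and H2ac22 at 1580, 1390 and 1670 FPKM against 885 (0.86 ± 0.22, adjusted p = 0.037). H2ac24 was tested only because these 3 bisphenol libraries of RA EB took it past the filter, so its call there is not independent of the filter. In NPC (2.25% of all genes called) H2ac24 was absent from the bisphenol libraries and at 67.4 FPKM in DMSO. The H2ac13 call in EB day 12 was lost without BPF (adjusted p = 0.098) or BPS (adjusted p = 0.064), the H2ac22 call in RA EB without BPA (adjusted p = 0.069) or BPS (adjusted p = 0.087) and with limma, and the H2ac24 call in NPC with DESeq2 (adjusted p = 0.83). With the 11 near-identical H2A genes summed, none of these stages had a call for them. Their sum in RA EB was 3105, 2783 and 3261 FPKM against 2387 FPKM in DMSO (0.34, adjusted p = 0.34). H1f2 in EB day 12 was then the only feature of the 8 called in any stage (adjusted p = 0.00076).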

How the data were processed

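Each library's deposited file gave, per mouse gene identified by its Entrez ID, an expected count, an FPKM value and gene and effective lengths, per the file headers. The authors made the expected counts and FPKM with Bowtie2, HISAT and RSEM on mm10, per the submitters' processing notes, which give no order. Library preparation, strand and read length are not given in the sources used here. The files list only genes above 0, and genes missing from a file were set to 0. Expected counts were rounded to whole numbers. Genes with at least 1 CPM (counts scaled to library size) in at least 4 libraries (15632) were tested with edgeR 4.0.16 (R 4.3.3), using TMM scaling and the quasi-likelihood test. Stages and treatments were compared in an additive model of stage and treatment (21 residual degrees of freedom). Single stages were compared in a model of stage by class of treatment (16 residual degrees of freedom). Benjamini-Hochberg adjustment ran over all tested genes. DESeq2 1.42.0 and limma 3.58.1 on log2(FPKM + pseudocount), with pseudocounts of 1 and 0.1, were alternatives. The depth, 9574833 to 11070149 counts per library, limits members with few counts, and errors cover the spread between these libraries only. Near-identical members were found by shared 50-base windows of GENCODE M21 transcripts and summed, and promoters came from RefSeq. The members, gene lists and tests were chosen with earlier results of these data known. Named were the 3 members of each class with the highest mean FPKM, up to 3 called members in each direction per stage comparison, the called members per treatment comparison or else the 2 members with the smallest p, up to 2 called genes in each direction per list, and H2az1, H3f3a, H3f3b, H2ax, H1f0 and Slbp throughout. The scripts were tested on simulated data.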

Additional observations from a re-analysis of the deposited data

Results flagged for a closer look

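Among 130 sets of 4 libraries of a stage, 14 held a library far from the other 3. The cutoff marks about 1 in 20 sets of independent normal values. Some sets here hold zeros, ties or few reads, and some overlap, so the number flagged cannot be set against that rate. The H2B sum was 10.2 FPKM in the DMSO library of EB day 12, against 14.1 to 14.7 in the others. The H4 sum was 10.0 FPKM in the BPF library of EB day 4 (others 4.78 to 5.63) and 1.79 FPKM in the BPS library of EB day 20 (others 3.03 to 3.19). In the BPA library of EB day 6 the 11 near-identical H2A genes summed to 1940 FPKM (others 2190 to 2240) and H2ac22 stood at 764 FPKM (others 982 to 1010). H2ac24 stood at 13.2 FPKM in the BPA library of EB day 20 and at 67.4 FPKM in the DMSO library of NPC, with the others at 0.

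H1f1 stood at 0.27 FPKM in the BPS library of EB day 9 (others 0.13), and H2ac15 at 3.58 FPKM in the BPF library of ESC (others 0.58 to 1.03). H2bc4 stood at 3.49 FPKM in the DMSO library of EB day 4 (others 5.64 to 5.93). H3c3 stood at 0.78 FPKM in the BPA library of EB day 9 (others 0) and at 2.43 FPKM in the DMSO library of RA EB (others 0.61 to 0.71). H4c9 stood at 3.84 FPKM in the BPS library of ESC (others 1.92 to 2.23) and at 0.98 FPKM in the BPA library of EB day 6 (others 1.59 to 1.71). The causes were not tested.

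The difference between bisphenols and DMSO varied across the 8 stages, by edgeR's interaction test, for 5 members, beside 21.6% of all genes (3375 of 15632). These were H2ac24 (adjusted p = 0.00069), H2ac13 (adjusted p = 0.0031), H1f2 (adjusted p = 0.012), H2ac19 (adjusted p = 0.037) and H2ac22 (adjusted p = 0.04). With near-identical members summed, H1f2 kept its call (adjusted p = 0.012), while the 11 H2A genes (adjusted p = 0.3) and the H2ac18 and H2ac19 sum (adjusted p = 0.94) had none.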

How the results depend on the processing

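Low counts limit most members, and the number called turned on the filter and the tool. Of the named members' log2 differences recomputed, 301 kept their direction and their side of the threshold, 43 kept their direction but lost the call and 0 changed sign. Settings in which a member was not tested or had no adjusted p are left out of these numbers. The called H1f1 differences were thus recomputed in 6 settings each, against 11 for those of H1f2 between stages. Treatments give the replicate numbers, so the replicate block is the treatment term, and without the block the 8 stage comparisons called 3, 3, 1, 1, 5, 4, 10 and 6 members. With limma on log2(FPKM + 1), EB day 4 against ESC called 0 members (3 in edgeR's test), EB day 6 against EB day 4 1 (3), EB day 9 against EB day 6 0 (1), EB day 12 against EB day 9 0 (1), and RA EB against EB day 4 2 (4). With a pseudocount of 0.1, EB day 9 against EB day 6 called 4, and DESeq2 called 2 there. With no filter, EB day 6 against EB day 4 called 5, EB day 9 against EB day 6 2, EB day 12 against EB day 9 3, RA EB against EB day 4 8, NPC against RA EB 13 and NPC against EB day 20 8. With a filter of 5 CPM, the stage comparisons except RA EB against EB day 4 called 1, 1, 0, 0, 2, 4 and 3. With near-identical members summed, RA EB against EB day 4 called 2 and NPC against EB day 20 3. Leaving out each treatment gave 0 to 3, 0 to 2, 1 to 2, 0 to 3, 4 to 7, 3 to 5, 6 to 8 and 4 to 7 calls in the 8 stage comparisons. The counts of 0 came without BPS in EB day 4 against ESC, without BPA or BPF in EB day 6 against EB day 4, and without BPF in EB day 12 against EB day 9.

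Over stages, leaving out NPC gave 2 calls for the bisphenols together and 1 each for BPF and BPS, and leaving out the other stages gave 0 (range 0 to 2, 0 to 1 and 0 to 1). Within stages, summing near-identical members gave 0 calls in EB day 9, RA EB and NPC and 1 in EB day 12. EB day 12 called 4 with limma and a pseudocount of 0.1, and EB day 20 called 1 with either pseudocount. RA EB called 1 with DESeq2 and with limma at either pseudocount. NPC called 0 with DESeq2 and 2 with no filter. Leaving out a bisphenol gave 1 to 3 calls in EB day 12, 0 to 2 in EB day 20 and 1 to 2 in RA EB. Without the genes in sets of near-identical members, the H2A ratio over ESC was -0.82 in EB day 20 and -1.29 in NPC, and the H2B ratio 1.03 and 0.33. Some of the genes left in still share reads. Computed from TMM-scaled CPM, the H2B ratio in NPC was -0.86. The H3 sum without the genes in these sets was not run because no gene was left. The causes were not tested.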
